A study of Mus musculus with 4 samples.

Results

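Killer lectin-like receptors are surface proteins of the C-type lectin fold that natural killer (NK) cells and differentiated T cells use to raise or lower their response to a target cell. The 10 genes considered were Klrg1, Klrb1f, Klrb1c, Klrd1, Klrk1, Klrc1, Klrc2, Klre1, Klra7 and Klra8. Values were taken from all probe sets whose platform symbol was exactly one of these names, which gave 12 of 45101 probe sets and 9 of the 10 genes. Klrb1c, which encodes the antigen NK1.1, had no probe set of its own here and has no value. Another 2 probe sets carried a member's symbol together with that of a neighbouring gene and were not used.

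The RNA came from mouse regulatory T (Treg) cells, sorted as CD4+ YFP+ Ly5.2+. Foxp3 is the master transcription factor of these suppressive T cells. In the deleted group (2 arrays) the Foxp3 gene was flanked by loxP sites and so open to excision by Cre. In the wild-type group (2 arrays) Foxp3 was unaltered. Cells of both groups had been treated with the Cre construct HR-MMPCreGFP, carried YFP as the reporter of Cre exposure, and were taken 6 weeks after adoptive transfer. The sources used here do not give the age or strain of the mice, the state of the hosts, or whether animals were pooled. The comparison asks what mature peripheral Treg cells keep or lose when Foxp3 is removed.

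Most of these receptors pass signals through short tails or adaptors. Inhibitory members carry a tyrosine motif that recruits phosphatases such as SHP-1 (Ptpn6) and SHP-2 (Ptpn11). Activating members borrow the adaptors DAP10 (Hcst) or DAP12 (Tyrobp). CD94 (Klrd1) forms dimers with NKG2A (Klrc1, inhibitory) or NKG2C (Klrc2, activating), and NKG2D (Klrk1) recognises stress-induced ligands. KLRG1 binds cadherins and marks highly differentiated lymphocytes, among them a subset of effector Treg cells.

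Values are GCRMA intensities, given on the log2 scale unless a sentence says intensity. GCRMA removes a background predicted from probe sequence, so dim probe sets crowd near a floor. A group whose mean log2 intensity is under 4 is described as near the floor. The targeted gene Foxp3 read 8.77 and 8.75 in the deleted arrays and 11.40 and 11.23 in the wild-type arrays. Its signal in the deleted arrays was lower but still far above 4, and the source of that signal was not tested. The words "without Foxp3" below name the deleted group. All 7 measured CD4 T cell markers lay at 7.15 or higher on every array, and Cd8a and Cd8b1 were below 4 on all 4. Deleted replicate 1 stood apart for some genes of NK and myeloid cells. The summed level of 12 measured NK cell markers was 11.30 there, 9.95 in deleted replicate 2 and 9.24 and 9.47 in wild type. The summed level of 5 myeloid markers was 10.81 against 9.23, and 9.27 and 8.96 in wild type. These sums add intensities, so bright genes weigh most. In deleted replicate 1 these were Gzma (intensity 1717) among NK markers, and Csf1r (924) and Lyz2 (828) among myeloid markers. Csf1r was far above the floor on every array. The summed levels of gamma-delta T cell and of B cell markers were lower in deleted replicate 1 than in deleted replicate 2. Member differences that rest on deleted replicate 1 are given with and without it. On bulk RNA, fewer cells of a type and less RNA per cell cannot be told apart.

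The family split 3 ways. Klrg1 was far lower in both deleted arrays, Klrb1f was far higher in both, and Klrd1, Klrc1, Klrk1, Klra8 and 1 of the 2 Klra7 probe sets were highest in deleted replicate 1. The 5 probe sets left over for Klrb1f, Klrc1, Klrc2, Klre1 and Klra7 differed by at most 0.33 between group means. By group means, 7 of the 12 probe sets were higher in deleted cells and 5 were lower, with a median difference of 0.25, against -0.03 over all 45037 probe sets other than controls. Without deleted replicate 1 only 3 of the 12 were higher and the median was -0.058, and without deleted replicate 2 the median was 0.96. In 2 probe sets the deleted arrays were at least 1 above wild type without overlap (2.76% of all probe sets), and in 1 they were at least 1 below (2.0%).

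Of the 12 probe sets 6 passed the filter, a mean of at least 4 over the 4 arrays, and were tested. In limma with Benjamini-Hochberg adjustment over 16281 probe sets, 0 of these 6 were past an adjusted p of 0.05 (0.0% of all tested). At an unadjusted p under 0.05 there were 2 of 6, Klrg1 and Klrb1f, against 9.26% of all tested. Klrb1f (1457722_at) passed the filter only through its deleted arrays, and Klrc1 (1425005_at) only through deleted replicate 1. A filter passed in this way favours a difference, so nothing is read from the 2 of 6. With 2 arrays a group an exact permutation test cannot go below 0.333, so the differences below are measured values without a call.

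**Figure D1:**
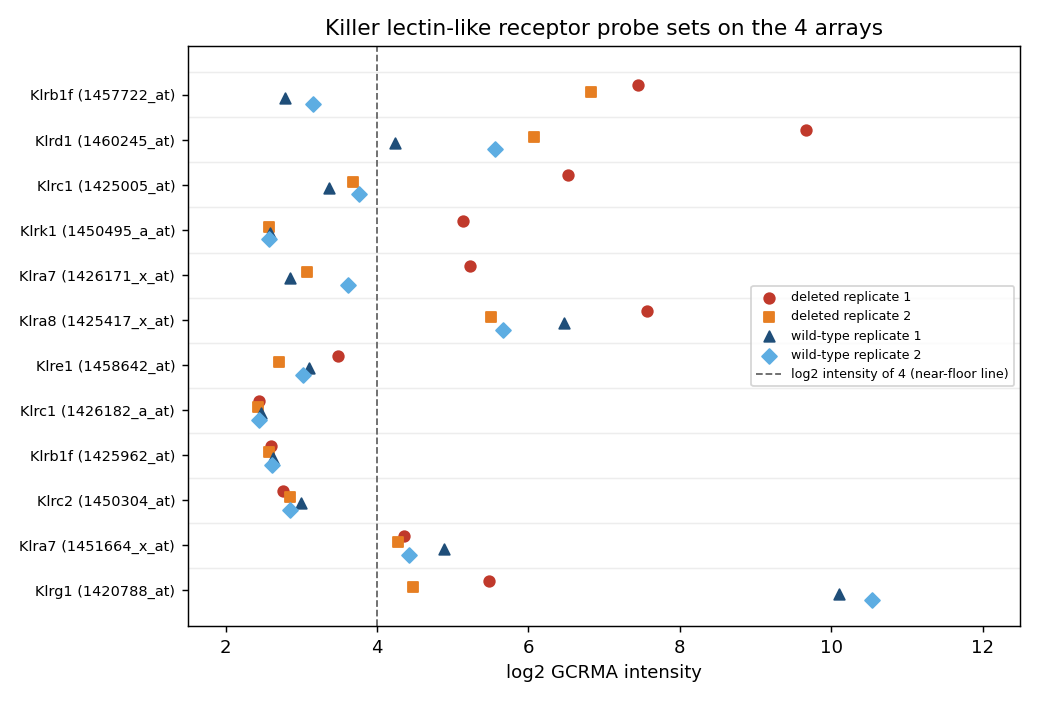
Log2 GCRMA intensity (horizontal axis) of the 12 receptor probe sets (rows, ordered by difference) on each of the 4 arrays, with a dashed line at 4. Klrg1 has its deleted arrays near 5 and its wild-type arrays above 10, Klrb1f has the reverse order, and the 4 rows from Klrd1 to Klra7 (1426171_x_at), with Klra8, have deleted replicate 1 alone on the right.

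Klrg1, the inhibitory cadherin receptor, has 1 probe set, which gave 5.48 and 4.47 in the deleted arrays, whereas the wild-type arrays gave 10.10 and 10.54. In intensity these were 44.6 and 22.2 against 1095 and 1488. The groups lay far apart, and neither mean was near the floor. The mean was 4.97 ± 0.71 in deleted and 10.32 ± 0.31 in wild-type arrays (SD, n = 2), a difference of -5.34 (SE 0.48), or 40.6-fold. Its unadjusted p was 0.000105 and its adjusted p = 0.115 in limma. The deleted arrays were lower by 4.84 on replicate 1 and by 5.85 on replicate 2, each set against the wild-type mean. Klrg1 was therefore the member with the largest difference among the 12, and the one whose direction was opposite to the rest of those that differed by at least 1.

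The genes most like Klrg1 over the 4 arrays, by Euclidean distance between log2 values with each gene's own mean taken off, were Itgb8 (0.70), Laptm4b (0.70) and Il2ra (1.18), out of 8628 genes compared. Itgb8, an integrin subunit, read 4.26 and 4.18 against 9.14 and 9.51. Il2ra, the high-affinity interleukin-2 receptor subunit CD25, read 5.92 and 4.25 against 9.47 and 9.36. Because they were chosen by this distance, a wild-type level far above both deleted arrays follows from the choice.

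Cdh1 encodes E-cadherin, a ligand of KLRG1, and was higher where Klrg1 was lower. It gave 6.33 and 5.37 without Foxp3 and 4.25 and 3.64 with it, a difference of 1.91 (SE 0.47, adjusted p = 0.354 in limma). The groups did not overlap, and the wild-type mean of Cdh1 was near the floor. Cdh2 and Cdh4, the other cadherin ligands, were between 2.90 and 3.08 on every array.

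Klrb1f encodes NKR-P1F, a receptor of the NKR-P1 group that binds proteins of the Clr family. Its brighter probe set (1457722_at) read 7.45 and 6.82 without Foxp3, and 2.79 and 3.16 with wild-type Foxp3. Both deleted arrays were high and both wild-type arrays were near the floor, so the probe set passed the filter through the deleted arrays alone. The mean was 7.14 ± 0.44 against 2.97 ± 0.26 (SD, n = 2), a difference of 4.16 (SE 0.39), with an unadjusted p of 0.000123 and an adjusted p = 0.115 in limma. Against a wild-type group at the floor this size depends on the floor, and with values below 4 raised to 4 the difference was 3.13. The other Klrb1f probe set (1425962_at) lay between 2.57 and 2.63 on all 4 arrays, near the floor in both groups, so the difference rests on 1 probe set.

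The stretch before the Klrb1f start site is shown because this gene was well above the wild-type level in both deleted arrays. It covers the 250 bases upstream of the RefSeq start on GRCm38.p6, plus strand, chr6:129045651-129045900, 5′ to 3′. Capitals mark GGTGTG, a T-box core, on either strand.
Klrb1f: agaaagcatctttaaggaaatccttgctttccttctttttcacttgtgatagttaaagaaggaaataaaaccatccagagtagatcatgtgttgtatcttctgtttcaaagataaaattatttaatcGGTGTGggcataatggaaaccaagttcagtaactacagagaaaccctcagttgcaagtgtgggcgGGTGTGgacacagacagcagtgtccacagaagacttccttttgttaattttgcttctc
The cores were searched on both strands: GGTGTG (T-box), TGTGGT (RUNX) and TGTTTA (forkhead). The T-box and RUNX letters can overlap. Klrb1f held 2 T-box matches and 0 of the other cores. Of 32851 upstream stretches of the same length, 16.3% held the T-box letters, 14.0% the RUNX letters and 3952 stretches the forkhead letters. A match describes the letters and does not show binding.

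The genes most like Klrb1f by the same distance were Gab3 (0.29), Tgfbr3 (0.66) and Pde3b (1.05). Gab3, a signalling adaptor, read 7.19 and 6.46 against 2.53 and 3.19, so that, as for Klrb1f, both wild-type values lay under 4 and part of the likeness is in values near the floor. Tgfbr3, a TGF-beta co-receptor, read 7.10 and 6.61 against 3.24 and 3.44.

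Among the Clr proteins, Clec2i (Clr-g, bound by NKR-P1F) gave 6.11 and 7.05 against 6.14 and 5.93 with overlapping groups. On its dimmer probe set, without overlap, it gave 4.53 and 4.88 against 3.60 and 4.38. Clec2d (Clr-b, the ligand of an inhibitory NKR-P1 receptor) gave 10.23 and 10.56 against 9.45 and 9.36, a difference of 0.99 (SE 0.28, adjusted p = 0.415 in limma). Some markers of other lymphocytes also differed in both deleted arrays, upward or downward. Cd160, an NK and intraepithelial cell receptor, read 6.42 and 8.06 on its brightest probe set, and at most 5.18 in wild type. On 1420067_at deleted replicate 1 read 3.41 against 3.40 and 3.39 in wild type, and only deleted replicate 2 was higher. Cd160 probe sets 1420396_at and 1456847_at were higher in both deleted arrays but read at most 4.40. Cd163l1, on the gamma-delta T cell list, read 6.15 and 6.65 against 3.65 and 3.93. The wild-type mean of Cd163l1 was near the floor. Of that list, 3 genes were measured, and Sox13 and Blk were below 4 on all arrays. The summed level of the 3 was 6.46 and 6.85 without Foxp3 and 4.77 and 4.91 with it, a difference that rests on Cd163l1. Cd79b, a B cell marker, was lower, at 4.04 and 4.94 against 6.58 and 6.49. Il2rb, on the NK list, differed by -0.91, and by -0.27 without deleted replicate 1. The part of such cells in the Klrb1f difference was not tested.

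**Figure D2:**
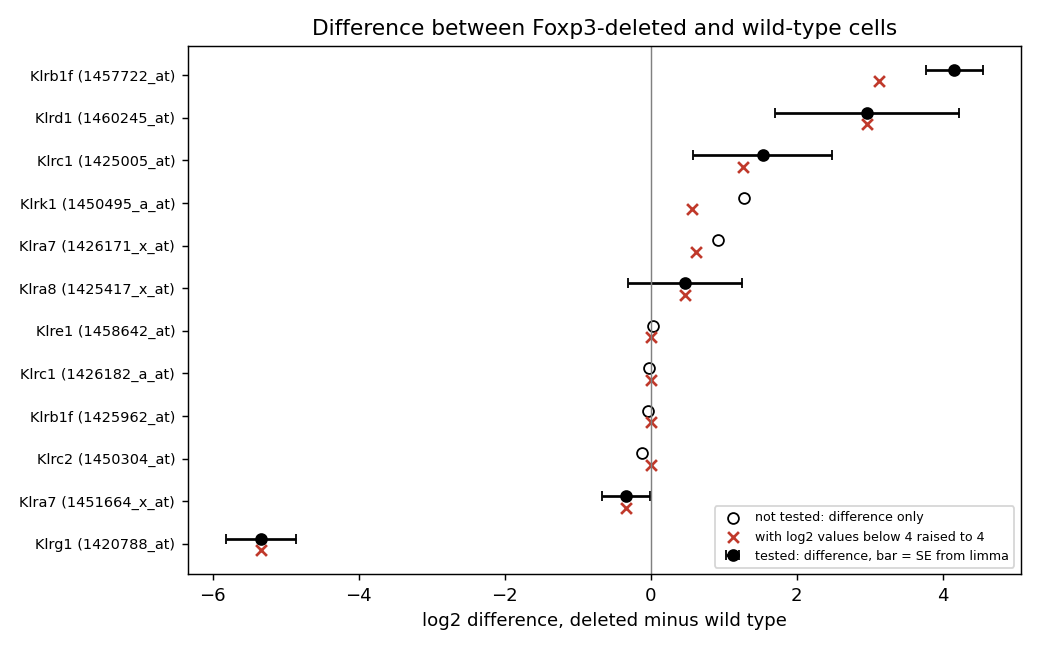
Log2 difference between group means, deleted minus wild type (horizontal axis), for each receptor probe set. Filled points with bars are tested probe sets with the limma SE, open points were not tested, and crosses give the difference with log2 values below 4 raised to 4. Klrg1 is at -5.34 and Klrb1f at 4.16, or 3.13 with the raised floor, and the bar of Klrd1 is the widest.

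Klrd1 encodes CD94, the shared chain of the NKG2 receptors. It read 9.67 and 6.07 without Foxp3, and 4.24 and 5.56 with wild-type Foxp3. The groups did not overlap, but the second deleted array was only just above the higher wild-type array. The means were 7.87 ± 2.55 and 4.90 ± 0.94 (SD, n = 2), a difference of 2.97 (SE 1.26, adjusted p = 0.577 in limma). It was 1.17 when deleted replicate 1 was left out and 4.76 when deleted replicate 2 was, so the value moved by more than the SE with the array left out.

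Klrc1 encodes NKG2A, the inhibitory partner of CD94. Its brighter probe set (1425005_at) read 6.52 and 3.68 against 3.37 and 3.77. Only deleted replicate 1 was above the floor, and the other deleted array lay within the wild-type range. The difference of 1.54 (SE 0.95, adjusted p = 0.695 in limma) became 0.12 without that array. The other Klrc1 probe set (1426182_a_at) read between 2.42 and 2.47 on all arrays. Klrc2, for the activating partner NKG2C, read between 2.75 and 2.99 and was near the floor in both groups.

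Klrk1 encodes NKG2D, an activating receptor that works through DAP10 and DAP12. It read 5.14 in deleted replicate 1, 2.57 in deleted replicate 2, and 2.59 and 2.57 in the wild-type arrays. A single array was above the floor. The difference was 1.28, was not tested because the mean of 3.22 was below the filter, and was -0.0057 without that array. Ulbp1 and H60c, ligands of NKG2D, were below 4 on every array.

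Klra7 (Ly49G) and Klra8 (Ly49H) belong to the Ly49 group, of which Ly49G is an inhibitory receptor for class I molecules and Ly49H an activating receptor that uses DAP12. All their probe sets have names ending in _x_at, which marks probes that can also bind related transcripts, so a signal cannot be assigned to 1 Ly49 gene with certainty. Klra8 read 7.57 and 5.51 against 6.47 and 5.66, with overlapping groups, a difference of 0.47 (SE 0.78, adjusted p = 0.891 in limma). Without deleted replicate 1 its sign turned, to -0.56. Klra7 read 5.23 and 3.07 against 2.85 and 3.62 on 1426171_x_at, a difference of 0.92 that was not tested and was -0.16 without deleted replicate 1. On 1451664_x_at it read 4.36 and 4.28 against 4.89 and 4.42, a difference of -0.33 (SE 0.33, adjusted p = 0.795 in limma).

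Klre1, a receptor chain that pairs with KLRI proteins, read 3.48 and 2.71 against 3.10 and 3.02, near the floor in both groups. In total 5 probe sets were near the floor in both groups and 3 in the wild-type group alone, so that 8 of 12 were that dim in wild type. Over all probe sets, 61.9% were near the floor in both groups.

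The upstream stretches of Klrk1 and Klrc1 are shown beside that of Klrb1f because both genes were above the floor in deleted replicate 1 alone. Each is the 250 bases before the RefSeq start on GRCm38.p6, minus strand, written 5′ to 3′ in the direction of the gene, at chr6:129623865-129624114 for Klrk1 and chr6:129678974-129679223 for Klrc1. Capitals mark the RUNX core TGTGGT or its complement ACCACA.
Klrk1: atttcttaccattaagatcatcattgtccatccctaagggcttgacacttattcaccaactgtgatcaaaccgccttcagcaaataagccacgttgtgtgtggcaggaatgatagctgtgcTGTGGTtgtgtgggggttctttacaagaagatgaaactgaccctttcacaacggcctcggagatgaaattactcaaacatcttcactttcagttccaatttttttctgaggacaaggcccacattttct
Klrc1: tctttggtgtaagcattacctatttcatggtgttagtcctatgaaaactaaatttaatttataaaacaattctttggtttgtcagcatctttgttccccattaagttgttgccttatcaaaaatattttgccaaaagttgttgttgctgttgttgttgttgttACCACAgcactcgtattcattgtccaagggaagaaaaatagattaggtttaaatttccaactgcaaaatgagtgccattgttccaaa
Each held 1 RUNX match and 0 T-box or forkhead matches. The RUNX letters were also upstream of Klrb1c, Klrc2 and Klre1, of which Klrc2 and Klre1 were dim on all arrays. For Klre1 only the stretch at chr6:129577963-129578212 held them, and it also held 1 forkhead match. The other Klre1 stretch held 0 of either. Each Klra7 stretch held 0 RUNX matches and 1 forkhead match. Upstream stretches were found for 8 of the 10 genes. Klrg1 and Klrd1 have none here.

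Deleted replicate 1 exceeded deleted replicate 2 by at least 2 on 5 of the 12 receptor probe sets, against 0.309% of all probe sets; this size was chosen after the values were seen. The gaps were 3.60 for Klrd1, 2.84 for Klrc1, 2.57 for Klrk1, 2.16 for Klra7 and 2.06 for Klra8. Klrg1 (1.01) and Klrb1f (0.62) had smaller gaps. Some genes of NK and myeloid cells were likewise highest in deleted replicate 1. Gzma, a granule protease, read 10.75 in deleted replicate 1 and 8.50 in deleted replicate 2, with 7.41 and 8.24 in wild type. Fcgr3, an Fc receptor, read 5.01 and 3.07 against 3.20 and 3.10, and Lyz2, a myeloid lysozyme, read 9.69 and 6.31 against 5.65 and 7.24. Others went another way: Il2rb, on the NK list, was lowest there, at 6.01 and 7.28 against 7.67 and 7.44, Cd160 was higher in deleted replicate 2, and the myeloid genes Adgre1 and Itgam were not highest in deleted replicate 1. Of the NK markers, 4 were below 4 on all arrays: the defining NK receptor gene Ncr1, Itga2, Prf1 and Khdc1a. Zbtb16, a factor of NKT cells, was below 4 on all arrays as well. The part of NK or myeloid RNA in the values of deleted replicate 1 was not tested.

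**Figure D3:**
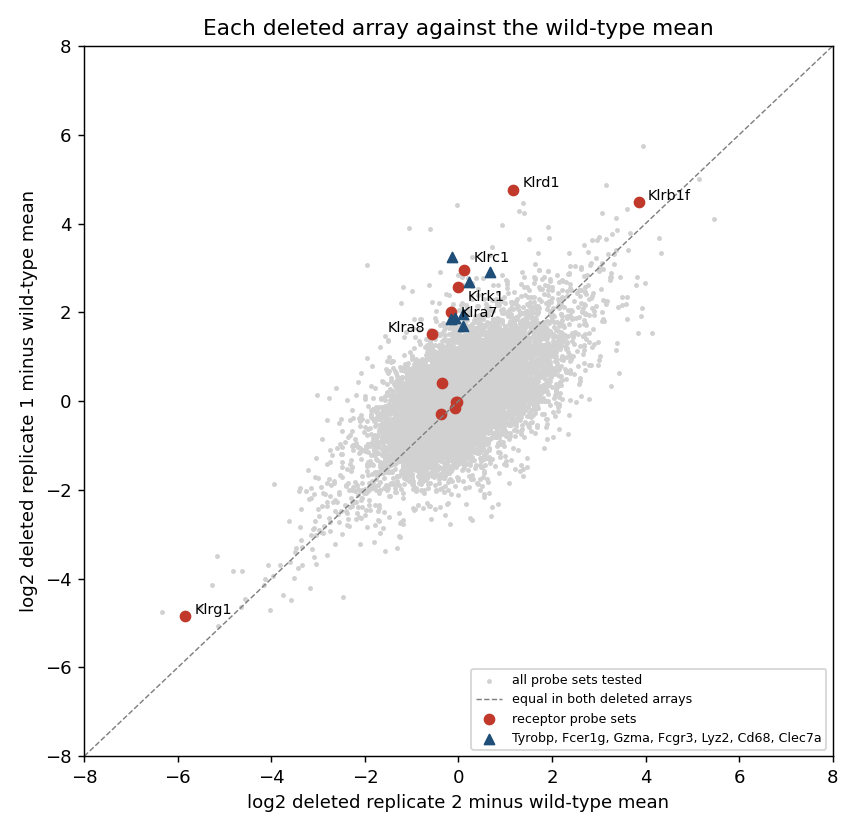
Log2 difference from the wild-type mean in deleted replicate 2 (horizontal axis) and in deleted replicate 1 (vertical axis). Grey points are the 16281 probe sets tested, red circles the receptor probe sets, and the dashed line marks equal values. Blue triangles are 7 genes of NK or myeloid cells, all of them highest in deleted replicate 1, so their place follows from the choice. Il2rb, Cd160, Adgre1 and Itgam, which were not highest there, are not marked. Klrg1 and Klrb1f lie close to the line at its ends, whereas Klrd1, Klrc1, Klrk1, Klra7 and Klra8 lie above it beside the triangles.

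The adaptor genes did not move together. Hcst (DAP10) was higher in both deleted arrays, at 8.83 and 8.78 against 7.55 and 7.16, a difference of 1.45 (SE 0.35, adjusted p = 0.334 in limma). Tyrobp (DAP12) was higher in deleted replicate 1 alone, at 8.64 and 6.64 against 6.93 and 6.65, and so was Fcer1g, at 6.30 and 4.45 against 4.23 and 4.47. Leaving out that array turned the Tyrobp difference to -0.15 and brought that of Fcer1g to 0.10. Tyrobp and Fcer1g are also among the NK markers summed above. Of 20 measured adaptor and signalling genes 16 had a higher mean and 4 a lower one, with a median of 0.68 against 0.01 over all probe sets tested. In 5 of the 20 the deleted arrays were at least 1 higher without overlap (6.67% of all tested), and in 0 at least 1 lower (4.58%). The 20 were read from the brightest probe set of each gene, whereas the median and shares over all tested count every probe set. The 5 were Hcst, Plcg2 (2.07), Fyn (1.47, and 0.58 on its other probe set), the phosphatase gene Ptpn11 (1.07) and Lat (1.05). The other Ptpn11 probe sets differed by -0.014 and 0.33 and were near the floor in both groups. Ptpn6, the other phosphatase of inhibitory receptors, differed by -0.14 with overlapping groups. None of the 20 passed an adjusted p of 0.05.

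The transcription factors listed for comparison differed in both directions. Of 16 measured, 8 had a higher and 8 a lower mean. On their brightest probe sets 3 were at least 1 higher and 3 at least 1 lower without overlap. Over all probe sets tested, not only the brightest of a gene, these shares were 6.67% and 4.58%. Of the 16, 15 were tested, and 0 passed an adjusted p of 0.05. Tbx21 (T-bet), which drives KLRG1 in effector T cells, read 8.61 and 8.83 against 6.68 and 7.22, a difference of 1.77 (SE 0.38, adjusted p = 0.299 in limma). Eomes, a T-box factor of NK and memory cells, read 6.54 and 5.01 against 2.80 and 4.48. Its difference was 2.13 (SE 0.78), or 1.37 without deleted replicate 1, and its dimmer probe set read 4.47 and 3.86 against 3.68 and 3.85. Runx1 was higher by 1.33 on its brightest probe set and by 0.17 on the next brightest. Prdm1 (BLIMP-1), a factor of effector Treg and terminally differentiated cells, read 4.61 and 4.58 against 6.66 and 6.56, a difference of -2.01 (SE 0.33, adjusted p = 0.184 in limma). Irf4 was lower by group means too (-1.66, and -0.31 on its other probe set, which was near the floor in both groups). Nfil3 read 4.29 and 3.51 against 5.04 and 4.86, a difference of -1.05. Its deleted mean was near the floor, and with values below 4 raised to 4 the Nfil3 difference was -0.81. Klrg1 and Prdm1 were lower, and Tbx21 higher, in both deleted arrays.

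Other lectin genes of the natural killer complex were mostly dim. Of 20 measured, 16 were near the floor in both groups. The 4 that were tested included Cd69, an activation marker, at 8.79 and 7.15 against 8.74 and 9.20, and Clec7a (dectin-1, a myeloid receptor), at 6.71 and 4.23 against 4.21 and 3.82, a difference of 1.46 that was 0.22 without deleted replicate 1. The remaining Klra and Klrb1 genes with probe sets, such as Klra1, Klra2 and Klrb1b, were below 4 on every array, while Klrb1a was above 4 in deleted replicate 1 alone, at 4.31.

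**Figure D4:**
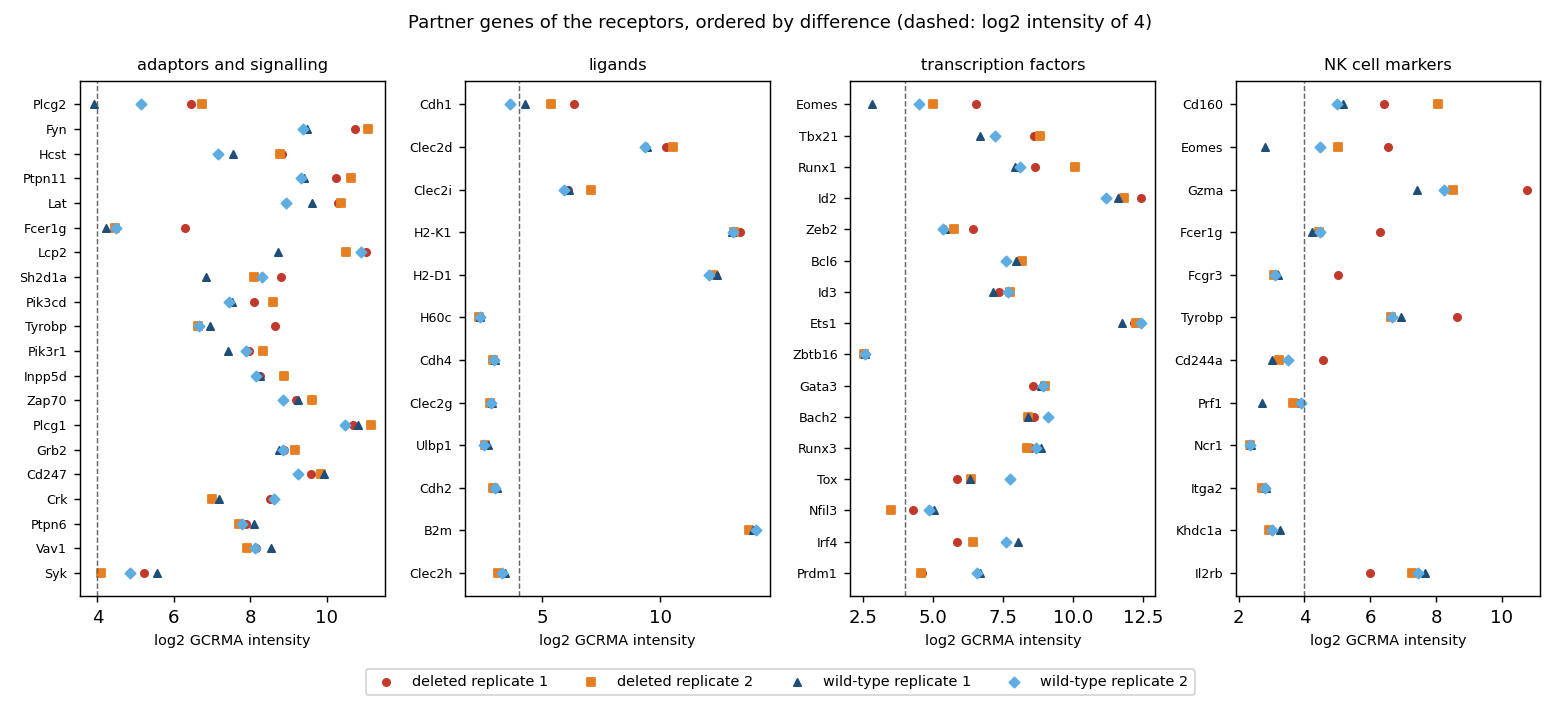
Log2 GCRMA intensity on each of the 4 arrays for adaptor and signalling genes, ligands, transcription factors and NK cell markers, with genes ordered by their difference and a dashed line at 4. Hcst and Tbx21 have both deleted arrays on the right of both wild-type arrays, Prdm1 has them on the left, and Tyrobp, Fcer1g and Fcgr3 have deleted replicate 1 alone on the right.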

How the data were processed

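The authors deposited GCRMA intensities on a linear scale for 4 biotin-labelled arrays, for which the submitters' processing notes name GCRMA 1.1.3. RNA was extracted with a Qiagen kit and amplified with an Ambion kit, per the labels. Its other settings are not stated there. The number of arrays limits the precision.

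Values were converted to log2 with no pseudocount, and 64 control probe sets were left out. Of 45101 probe sets 34958 had 1 gene symbol, 932 several and 9211 none. Each member was kept per probe set. All 12 member probe sets matched the gene table of GRCm38.p6, with 0 symbols changed. Probe sets with a mean log2 of at least 4 were fitted together in limma 3.58.1 (R 4.3.3, lmFit, eBayes with an intensity trend, 2 residual and 2.98 prior degrees of freedom), two-sided, with Benjamini-Hochberg adjustment. Other genes were read from their brightest probe set. The labels do not say that replicates came from separate animals, so p-values reflect only the spread among these arrays, possibly technical.

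Every member was named, and up to 6 genes per list by size of difference; Ptpn6, Tyrobp, H60c, Ulbp1, Cdh2, Cdh4 and the dim lectin and marker genes were added after their values were seen. The members and lists were chosen with earlier results of these data known. The fit was checked on data simulated from the limma model itself. The simulation held no shift of a single array, so it covers the computation and not how well the model suits these arrays. Tables and plots used Python 3.11.15, pandas 2.3.3 and matplotlib 3.10.9. Upstream sequences are RefSeq's.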

Additional observations from a re-analysis of the deposited data

How the results depend on the processing

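The count of 0 probe sets past an adjusted p of 0.05, among the members and on the whole array, held under all 14 alternatives run: no filter, a mean of at least 5, values below 4 raised to 4, a pseudocount of 16, quantile normalization, median centring, gene level, no trend, the replicate block as labelled and crossed, and each array left out. Klrg1 stayed between -5.85 and -4.75 with an adjusted p from 0.0621 to 0.772, and Klrb1f (1457722_at) between 2.71 and 4.47 with 0.0638 to 0.772. Leaving out 1 array assumes that the lone array of a group varies like the others. It gave between 3 and 7 member probe sets at least 1 apart without overlap, 7 of them without deleted replicate 2 and 5 without wild-type replicate 2, where 1 array fewer can overlap. The median member difference ran from -0.058 without deleted replicate 1 to 0.96 without deleted replicate 2. Klra8 ran from -0.56 without deleted replicate 1, where it reversed, to 1.503 without deleted replicate 2, and the cause was not tested. With the replicate block of the labels Klrg1 had an adjusted p of 0.304. The labels do not say that the numbers pair samples, and deviations of same-numbered samples correlated at -0.243 over 16281 probe sets. Crossed pairing, chosen after seeing the data, called 0 probe sets. Signal near the floor limits 8 of the 12 probe sets.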
